A study of Mus musculus with 14 samples.

Results

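The proteasome genes described here are the 48 genes whose symbol follows the pattern of the core, regulatory and chaperone subunits (Psma, Psmb, Psmc, Psmd, Psme, Psmf or Psmg and a number), out of 23420 symbols in the count table. The pattern uses names only and no measured value. All 48 passed the filter on low counts and were among the 14217 genes tested. Of the 48, 5 are immunoproteasome genes (Psmb8, Psmb9, Psmb10, Psme1 and Psme2) and 43 are constitutive subunits, other activators, the inhibitor or assembly chaperones.

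The proteasome is the large protease that degrades ubiquitin-tagged proteins in the cytosol and nucleus. Its barrel-shaped 20S core has outer rings of alpha subunits and inner rings of beta subunits, and the 19S cap (ATPases and non-ATPase subunits) recognises, unfolds and feeds in the substrate. In cells exposed to interferon-gamma, and in dendritic cells (DCs) in general, the catalytic beta subunits Psmb5, Psmb6 and Psmb7 are partly replaced by Psmb8, Psmb9 and Psmb10, which shifts the cut sites toward peptides that fit MHC class I, and the PA28 activator made of Psme1 and Psme2 opens the core.

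Smart-seq2 libraries (14 in all, 150 sorted DCs each) were made from mouse popliteal lymph nodes (C57BL/6). The study used LIPSTIC, in which T cells carrying the enzyme sortase on CD40 ligand put biotin onto a pentaglycine tag (G5) on the CD40 of the DCs they touch. The biotin-positive group (6 libraries) and the biotin-negative group (6 libraries) were endogenous DCs of mice labelled G5-Cd40+/+; the protocol calls these recipients Cd40G5/G5. The mice received Cd40G5/G5 DCs pulsed with the peptide OVA323-339 (500000 per footpad), and 18 hours later 300000 CD4+ T cells of genotype CD40lgSrtA/Y CD4-Cre OT-II, in which Cre is driven by the Cd4 promoter. The Cd40-null group (2 libraries) came from Cd40-/- mice handled alike, but with WT DCs and WT OT-II T cells, so that genotype and transferred cells differ together. All groups received Biotin-LPETG (300 nmol per footpad) at 46 hours and were taken at 48 hours after T cell transfer, and all were sorted as MHC-IIhi CD11c+ CD11b+ XCR1-. Neither age nor sex is given, and whether each library is from its own mouse is not labelled; the p-values therefore rest on the spread among libraries, which may be technical.

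Total counts lay between 14500000 and 33300000 per library. Cd40, the gene deleted in the null mice, ran from 852 to 1310 CPM in biotin-positive, from 386 to 598 CPM in biotin-negative and from 53.3 to 74.2 CPM in Cd40-null libraries. CPM here are counts set to a common library total, after scaling by the trimmed mean of M values (TMM). The 7 conventional DC genes had counts in all groups, but differed in level: 4 of them fell in biotin-positive against biotin-negative libraries and 0 rose (median log2 −1.32). The 4 were Itgax, which encodes the sort marker CD11c (55.5 and 139 CPM in biotin-positive and biotin-negative libraries), and the MHC class II genes H2-Aa (442 and 1776 CPM), H2-Ab1 (229.7 and 1245 CPM) and Cd74 (920.2 and 2743 CPM), whose complex was also a sort marker. Flt3, a growth factor receptor of the DC lineage, averaged 1015, 849 and 829 CPM in biotin-positive, biotin-negative and Cd40-null libraries and did not pass the test. Itgam, which encodes the sort marker CD11b, was low, at 1.91 ± 2.38 CPM in biotin-positive, 25.3 ± 21.3 CPM in biotin-negative and 14.7 CPM in Cd40-null libraries, and Xcr1, absent from the gate, averaged 2.00, 3.09 and 2.15 CPM in the same 3 groups. In pooled cells such as these, fewer cells of a type and less RNA per cell cannot be told apart.

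Per kilobase of transcript, Psme2, Psmb8 and Psme1, all of the immunoproteasome set, had the 3 highest levels of the family in each of the 3 groups. In biotin-positive libraries they stood at 1000.0, 658.7 and 611.4 CPM per kb. The next were Psma7, an alpha subunit, at 201.5 and Psmb9 at 194.1 CPM per kb, and Psmb10 had rank 10 at 120.2 CPM per kb. The constitutive catalytic subunits stood at ranks 16, 17 and 21, with 86.97 CPM per kb for Psmb6, 80.0 for Psmb7 and 68.41 for Psmb5. In biotin-negative libraries the immunoproteasome genes ran from 101.5 CPM per kb for Psmb10 to 747.5 for Psme2, and the 3 constitutive catalytic genes from 66.17 for Psmb5 to 90.54 for Psmb6. In Cd40-null libraries the same 2 sets ran from 107.7 to 810.2 and from 65.55 to 76.91 CPM per kb.

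The classes differed in how far their members' levels per kb spread. In biotin-positive libraries the immunoproteasome genes ran from 120.2 to 1000.0 CPM per kb. The 14 non-ATPase genes of the 19S cap ran from 8.25 (Psmd5) to 129.3 (Psmd2), and the 7 alpha subunits other than Psma8 from 43.7 (Psma2) to 201.5 (Psma7). These values depend on the transcript length used, which was 2.911 kb for Psma2 and 0.914 kb for Psma7. Before division by length the 7 alpha subunits ran from 102.9 (Psma4) to 194.4 CPM (Psma1), with Psma2 at 127.3 CPM. The 6 ATPases of the 19S cap lay between 37.45 (Psmc6) and 71.28 CPM per kb (Psmc4). The 4 structural beta subunits lay between 79.16 (Psmb1) and 114.1 CPM per kb (Psmb2). The activators PA28 gamma (Psme3) and PA200 (Psme4) and the inhibitor PI31 (Psmf1) were much lower, from 3.46 CPM per kb for Psme4 to 15.6 for Psmf1. The tissue-restricted subunits were near the floor: Psmb11, the catalytic subunit of the thymoproteasome of thymic cortical epithelium, had 0.605, 0.721 and 0.507 CPM per kb in biotin-positive, biotin-negative and Cd40-null libraries. Psma8, the alpha subunit of the testis, had 1.14, 1.35 and 2.21 CPM per kb, and no count at all in biotin-negative replicates 1, 3 and 4. A count of 3 there would be 0.107, 0.141 and 0.174 CPM.

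**Figure D1:**
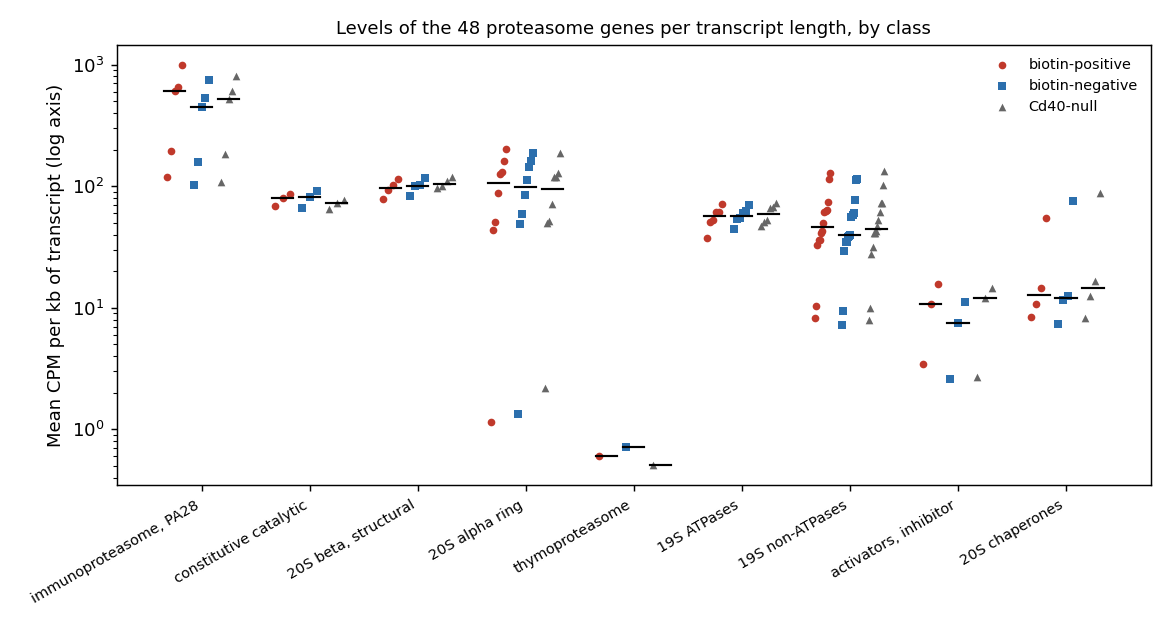
Mean CPM per kb of transcript (log axis) of each of the 48 proteasome genes, by subunit class, in biotin-positive, biotin-negative and Cd40-null libraries; each point is 1 gene in 1 group. The immunoproteasome class reaches 1000.0 CPM per kb in biotin-positive libraries (Psme2), while Psma8 and Psmb11 stay near 1.

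Biotin-positive and biotin-negative DCs come from the same kind of mouse and differ in the mark of CD40 contact with T cells. Of the 48 proteasome genes, 4 were higher and 1 was lower in biotin-positive libraries at a Benjamini-Hochberg false discovery rate of 0.05 (edgeR quasi-likelihood test, adjusted over all genes tested). Those 5 are 10.4% of the family, against 7.75% of all genes tested that were called. The higher calls were 8.33% of the family and 3.7% of all genes, and the lower call was 2.08% of the family and 4.05% of all genes. At an unadjusted p under 0.05 the shares were 20.8% and 21.1%. Of the 4 higher genes 3 belong to the immunoproteasome (Psme1, Psme2 and Psmb8) and the other is Psmf1; the lower gene is Psmb1. Changes were small throughout: no proteasome gene (0 of 48) differed by 1.5-fold, and the median log2 fold change was 0.07 over the family, 0.32 over the 5 immunoproteasome genes, 0.05 over the other 43 and −0.03 over all genes tested.

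The promoters of the 3 immunoproteasome genes called are printed here with that of the constitutive subunit Psmb5, because interferon-responsive and constitutive genes of the same particle are compared below. Each line gives 280 bases, 250 before and 30 after the RefSeq start (GRCm38.p6), 5′ to 3′ on the gene's strand. They are Psme1 at chr14:55578244-55578523 (plus strand), Psme2 at chr14:55591072-55591351 (minus), Psmb8 at chr17:34197945-34198224 (plus) and Psmb5 at chr14:54617966-54618245 (minus). Capitals mark an interferon-stimulated response element pattern (ISRE) in Psme1, an interferon-gamma-activated site pattern (GAS) in Psmb8 and an antioxidant response element pattern (ARE) in Psmb5; Psme2 holds none of the 3 patterns.
Psme1: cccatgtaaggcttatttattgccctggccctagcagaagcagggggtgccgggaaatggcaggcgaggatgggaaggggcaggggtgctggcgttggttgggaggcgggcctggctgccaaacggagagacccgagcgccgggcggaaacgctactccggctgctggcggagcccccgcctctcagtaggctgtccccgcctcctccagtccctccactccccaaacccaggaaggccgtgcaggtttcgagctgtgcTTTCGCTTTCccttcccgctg
Psme2: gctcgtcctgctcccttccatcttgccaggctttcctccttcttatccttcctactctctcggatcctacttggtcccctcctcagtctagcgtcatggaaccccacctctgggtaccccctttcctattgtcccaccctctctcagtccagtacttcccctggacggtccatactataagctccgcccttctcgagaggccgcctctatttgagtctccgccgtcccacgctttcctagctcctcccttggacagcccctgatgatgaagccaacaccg
Psmb8: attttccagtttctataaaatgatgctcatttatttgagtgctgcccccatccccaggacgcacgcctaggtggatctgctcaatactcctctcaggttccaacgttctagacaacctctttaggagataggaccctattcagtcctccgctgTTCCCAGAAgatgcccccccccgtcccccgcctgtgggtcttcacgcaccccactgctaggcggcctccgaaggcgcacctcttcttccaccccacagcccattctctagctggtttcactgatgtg
Psmb5: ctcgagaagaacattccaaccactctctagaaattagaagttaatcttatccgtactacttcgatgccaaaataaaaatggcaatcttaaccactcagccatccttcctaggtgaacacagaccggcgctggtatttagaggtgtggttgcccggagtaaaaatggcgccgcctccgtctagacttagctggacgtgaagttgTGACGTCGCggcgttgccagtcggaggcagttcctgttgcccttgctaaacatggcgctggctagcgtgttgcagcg

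The patterns were searched on both strands: GAAANNGAAA for the ISRE, TTCNNNGAA for the GAS, GGGNNNNNCC for NF-kB and TGACNNNGC for the ARE. Some genes have several promoter entries, which can overlap, so shares are given per gene with a match in any of its entries. The ISRE pattern was found in 3.8% of all 27025 genes with an entry and in 5 of the 40 proteasome genes that had one (12.5%), and Psme1 was the one immunoproteasome gene among them. The GAS pattern was in 9.04% of all genes and in 3 of the 40 (7.5%), Psmb8 being the one immunoproteasome gene. The ARE pattern was in 13% of all genes and in 6 of the 40 (15%), Psmb5 and Psmb6 among them and no immunoproteasome gene (0). The NF-kB pattern was in 51.7% of all genes and in 22 of the 40 (55%), Psme1, Psme2 and Psmb9 included. The GENCODE start lies 371 bases from the RefSeq start for Psme1 and 474 bases for Psmb8, so other windows could be read for these genes; a match describes letters in a window and not a bound site.

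The PA28 activator genes had the largest changes in the immunoproteasome set. Psme1 (PA28 alpha; chromosome 14, 55578123 to 55581529, GRCm38) ran from 634 over a median of 681 to 748 CPM in biotin-positive libraries, from 423 over 482 to 617 CPM in biotin-negative libraries, and was 534 and 629.6 CPM in the Cd40-null pair. All 6 biotin-positive libraries were above all 6 biotin-negative ones, and biotin-negative replicates 2 and 1 were the highest of their group. The means were 680 ± 41.9 and 495 ± 74.7 CPM (SD, n = 6 each), a 1.37-fold difference (log2 0.46, SE 0.10; edgeR adjusted p = 0.00643). Psme2 (PA28 beta; chromosome 14, 55587441 to 55591113) ran from 862 over 913 to 1164 CPM in biotin-positive libraries, from 584 over 698 to 969 CPM in biotin-negative libraries, and was 779 and 780.2 CPM in the Cd40-null pair. Its biotin groups overlapped through biotin-negative replicate 2. The means were 962.5 ± 115 and 719 ± 142 CPM, 1.34-fold apart (log2 0.42, SE 0.12; edgeR adjusted p = 0.034).

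Among the catalytic immunosubunits, Psmb8 (beta5i, the chymotrypsin-like site of the core; chromosome 17, 34197721 to 34201454) passed the test. It ran from 938 over 1085 to 1159 CPM in biotin-positive libraries, from 704 over 834 to 1076 CPM in biotin-negative libraries, and was 979 and 1008 CPM in the Cd40-null pair. The biotin groups overlapped through biotin-negative replicate 2, and the other 5 biotin-negative libraries lay below all biotin-positive ones. The means of 1072 ± 78.0 and 859 ± 133 CPM were 1.25-fold apart (log2 0.32, SE 0.09; edgeR adjusted p = 0.0479).

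Psmb9 and Psmb10, the beta1i and beta2i subunits, did not pass the test. Psmb9 (chromosome 17, 34181987 to 34187764) ran from 242 over 252 to 309 CPM in biotin-positive libraries, from 176 over 192 to 291 CPM in biotin-negative libraries, and was 247 and 249.7 CPM in the Cd40-null pair (log2 0.30, SE 0.13; edgeR adjusted p = 0.177). Psmb10 (chromosome 8, 105935735 to 105938444) ran from 129 over 162 to 175 CPM in biotin-positive libraries, from 99.9 over 124 to 185 CPM in biotin-negative libraries, and was 123 and 159 CPM in the Cd40-null pair (log2 0.24, SE 0.15; edgeR adjusted p = 0.392). For both genes biotin-negative replicates 1 and 2 lay within or above the biotin-positive range. Those replicates were the 2 highest biotin-negative libraries for all 5 immunoproteasome genes, and for 5 of the 43 other proteasome genes. The coefficient of variation was larger in biotin-negative than in biotin-positive libraries for 5 of 5 immunoproteasome genes and for 31 of all 48.

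**Figure D2:**
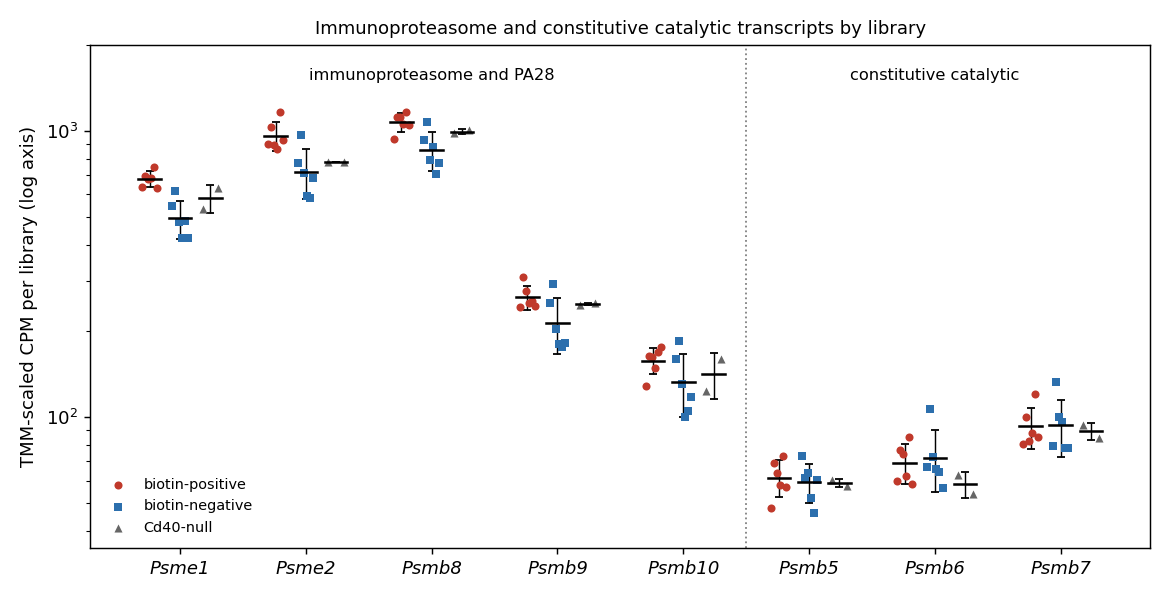
TMM-scaled CPM per library (log axis) of the 5 immunoproteasome genes and the 3 constitutive catalytic genes; points are libraries, bars the mean and SD of 6 biotin-positive, 6 biotin-negative and 2 Cd40-null libraries. Psme1 is the one of these 8 genes whose biotin-positive libraries (634 to 748 CPM) all lie above the biotin-negative ones (423 to 617 CPM).

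The constitutive catalytic subunits, which Psmb8, Psmb9 and Psmb10 replace, gave means close together in the biotin groups. Psmb5 (beta5; chromosome 14, 54614119 to 54618022) ran from 48.0 over 60.9 to 72.9 CPM in biotin-positive libraries, from 46.2 over 60.9 to 73.2 CPM in biotin-negative libraries, and was 60.4 and 57.5 CPM in the Cd40-null pair (log2 0.05, SE 0.14). Psmb6 (beta1; chromosome 11, 70525367 to 70527858) ran from 58.4 over 68.2 to 85.3 CPM in biotin-positive libraries, from 56.75 over 66.5 to 107 CPM in biotin-negative libraries, and was 62.7 and 54.0 CPM in the Cd40-null pair (log2 −0.06, SE 0.16). Psmb7 (beta2; chromosome 2, 38588036 to 38644087) ran from 80.5 over 86.8 to 120.5 CPM in biotin-positive libraries, from 77.8 over 87.9 to 132 CPM in biotin-negative libraries, and was 93.6 and 84.9 CPM in the Cd40-null pair (log2 −0.02, SE 0.15). The groups overlapped over almost their whole range for each gene, and the edgeR adjusted p values were 0.908, 0.9 and 0.971. With standard errors of 0.14 to 0.16, a log2 difference as large as that of Psmb10 was within about 2 standard errors of these values.

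Set against each other at each catalytic position, the immunosubunit exceeded the constitutive subunit in nearly every library. The ratio of Psmb8 to Psmb5 per kb was 9.73 ± 0.781 in biotin-positive libraries (8.78 to 10.8), 8.06 ± 1.24 in biotin-negative libraries (6.87 to 9.68), and 8.96 and 9.68 in the Cd40-null pair. Psmb9 over Psmb6 was 2.26 ± 0.260, 1.76 ± 0.243, and 2.33 and 2.73 in the same order of groups. Psmb10 over Psmb7 was 1.52 ± 0.217, 1.27 ± 0.288, and 1.163 and 1.661, and fell under 1 only in the lowest biotin-negative library, at 0.916. The immunosubunits made up 80.6% ± 1.47 of the summed catalytic mRNA per kb in biotin-positive libraries, 76.8% ± 1.395 in biotin-negative libraries, and 79.5% and 81.9% in the Cd40-null pair. The shares of the biotin groups overlapped, at 77.9% to 82% in biotin-positive libraries, against 74.8% to 79.0% in biotin-negative ones. The mean log2 ratio of the 3 immunosubunits to their counterparts was 0.31 higher in biotin-positive than in biotin-negative libraries, 0.0039 higher in biotin-positive than in Cd40-null libraries and 0.30 lower in biotin-negative than in Cd40-null libraries (−0.30). No test was made of these ratios or of the difference between the immunoproteasome genes and the others.

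**Figure D3:**
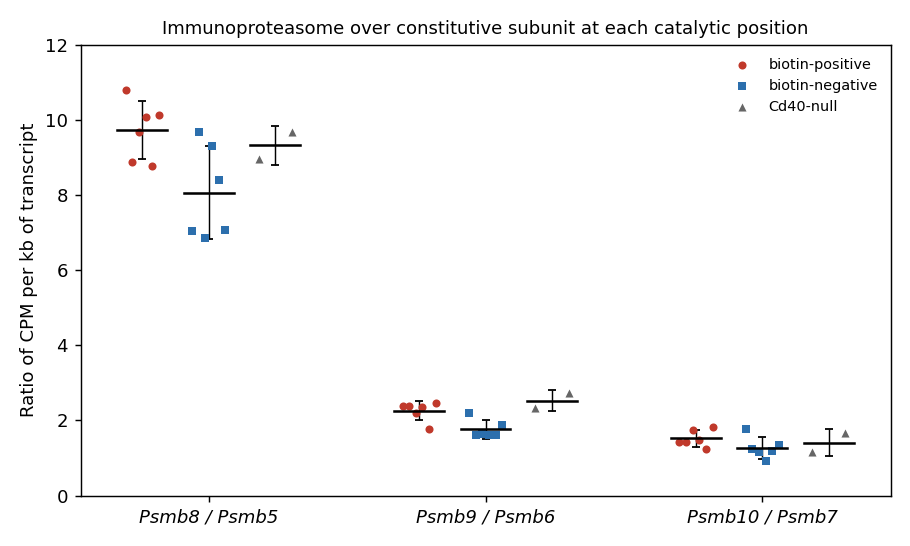
Ratio of CPM per kb of each catalytic immunosubunit to its constitutive counterpart in each library, with mean and SD per group (6 biotin-positive, 6 biotin-negative and 2 Cd40-null libraries). The ratio is 9.73 in biotin-positive libraries and 8.06 in biotin-negative ones for Psmb8 over Psmb5, and nearer to 1 for Psmb10 over Psmb7.

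Of the activators and the inhibitor outside the immunoproteasome, Psmf1 rose. It encodes PI31, known as an inhibitor of the 20S core in vitro and a binder of proteasomes in cells (chromosome 2, 151715812 to 151744186). It ran from 54.2 over 59.6 to 63.5 CPM in biotin-positive libraries, from 28.5 over 43.3 to 53.9 CPM in biotin-negative libraries, and was 52.0 and 59.1 CPM in the Cd40-null pair. The biotin groups did not overlap, though the lowest biotin-positive and the highest biotin-negative library were nearly level. The difference was 1.41-fold (log2 0.49, SE 0.15; edgeR adjusted p = 0.0488). Psme3, the nuclear PA28 gamma, varied widely, from 13.9 to 56.4 CPM in biotin-positive libraries and from 8.78 to 41.5 CPM in biotin-negative ones, and its log2 difference of 0.53 had an SE of 0.45.

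Over the 8 alpha subunits of the core barrel, log2 fold changes ran from −0.37 to 0.20. Over its 4 structural beta subunits they ran from −0.36 to 0.15. Psmb1, a structural beta subunit without a catalytic site (chromosome 17, 15475021 to 15499751), was the one proteasome gene that fell. It ran from 117 over 141 to 157 CPM in biotin-positive libraries, from 149 over 180.1 to 218 CPM in biotin-negative libraries, and was 179.8 and 170.2 CPM in the Cd40-null pair (log2 −0.36, SE 0.10; edgeR adjusted p = 0.0464). The groups overlapped between biotin-positive replicate 5 and biotin-negative replicate 5. Psma6, an alpha subunit, was 130.2 ± 24.2 CPM in biotin-positive libraries, against 168 ± 12.9 CPM in biotin-negative ones, and did not pass (log2 −0.37, SE 0.12; edgeR adjusted p = 0.0681). In all, 0 of 8 alpha subunits, 0 of 3 constitutive catalytic and 1 of 4 structural beta subunits were called. The share of all genes tested was 7.75%, so a count of 0 in classes this small does not set them apart.

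None of the 6 ATPases and none of the 14 other genes of the 19S cap was called, against 7.75% of all genes tested. Of those 14, 11 had a positive log2 fold change and 3 a negative one, with a median of 0.14. Of all 14217 genes tested, 6754 had a positive and 7463 a negative log2 fold change, with a median of −0.03. Psmd13, a lid subunit (RPN9), was nearest to the threshold in that class, at 99.7 ± 7.29 CPM in biotin-positive libraries, against 78.9 ± 7.56 CPM in biotin-negative ones (log2 0.34, SE 0.11; edgeR adjusted p = 0.0627), and its groups did not overlap. Psmc5, an ATPase (RPT6), was 70.0 CPM in biotin-positive libraries, against 82.2 CPM in biotin-negative ones (log2 −0.23, edgeR adjusted p = 0.243). Psmg4, a chaperone of the core's assembly, was 30.2 CPM in biotin-positive libraries, against 42.0 CPM in biotin-negative ones (log2 −0.47, SE 0.19; edgeR adjusted p = 0.159). Groups without overlap, biotin-positive above biotin-negative, were seen for 3 proteasome genes (Psme1, Psmf1 and Psmd13), or 6.25%, against 2.6% of all genes tested. In the opposite direction there were 0, against 2.41% of all genes.

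**Figure D4:**
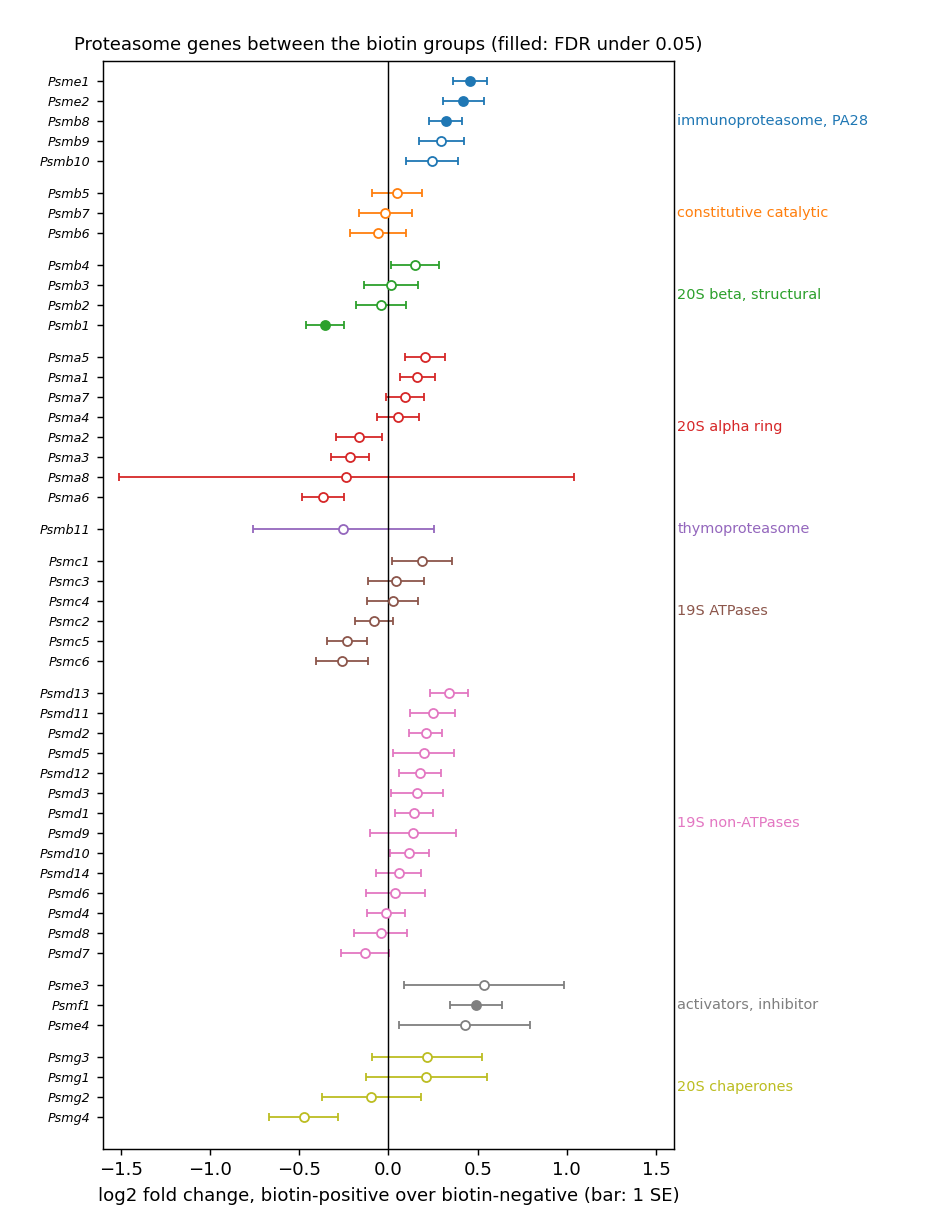
Log2 fold change (biotin-positive over biotin-negative) of the 48 proteasome genes by class, with 1 SE; filled points passed an FDR of 0.05. The 5 immunoproteasome genes lie between 0.24 and 0.46, and the 3 constitutive catalytic genes between −0.06 and 0.05.

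As sums over the family, the immunoproteasome genes came to 3135 ± 235 CPM in biotin-positive, 2420 ± 409 CPM in biotin-negative and 2744 CPM in Cd40-null libraries, and the other 43 genes to 3986 ± 229, 3899 ± 284 and 3967 CPM. Of the 48 genes, 15 (31.2%) were within 0.1 of 0 on the log2 scale between the biotin groups, against 16.6% of all genes tested. The family and all genes tested were not matched for expression level, which can move such a share.

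Of the 5 calls between the biotin groups, 4 sat near the threshold, with edgeR adjusted p from 0.034 to 0.0488. Psme1, at 0.00643, was called with each of the 14 libraries left out in turn, with adjusted p from 0.00122 to 0.0174. The call of Psme2 was lost without biotin-positive replicates 2, 5 or 6 or biotin-negative replicates 3, 4, 5 or 6, at adjusted p from 0.053 to 0.0743. Psmb8 was called only without biotin-positive replicate 1 (0.0368) or biotin-negative replicate 2 (0.00779) and otherwise had adjusted p from 0.0547 to 0.1004. Psmb1 was called only without biotin-positive replicate 5 (0.0358) or biotin-negative replicates 4 (0.0372) or 5 (0.0266), and otherwise had adjusted p from 0.0676 to 0.096. Psmf1 was called only without biotin-negative replicate 5 (0.0231), and otherwise had adjusted p from 0.0549 to 0.0987. Psmb9 was called without biotin-negative replicate 2 (log2 0.40, edgeR adjusted p = 0.0325), and Psma6 without biotin-positive replicate 5 (log2 −0.47, edgeR adjusted p = 0.0063).

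Other cell type markers moved with the biotin groups. The 14 measured monocyte and macrophage markers summed to 90.2 to 242 CPM in biotin-positive, 227 to 1260 CPM in biotin-negative and 265 to 459 CPM in Cd40-null libraries, and 0 of them rose and 7 fell in biotin-positive libraries. The 10 T cell markers summed to 254 to 365, 383 to 622 and 138 to 241 CPM, but these sums are almost wholly Il7r, an interleukin receptor chain (282 and 485 CPM in biotin-positive and biotin-negative libraries, or 91.4% and 93.1% of the sum), which was the 1 that fell. Of the 10 markers, 7 (Cd3d, Cd3e, Cd3g, Lck, Cd2, Cd28 and Bcl11b) had a positive log2 fold change and 3 a negative one, with a median of 1.27. The positive ones averaged at most 6.44 CPM in biotin-positive libraries (Lck) and did not pass the test. The 2 Langerhans cell markers, Cd207 and Epcam, summed to 212 to 293, 30.6 to 103 and 90.4 to 101 CPM, and both rose. Genes with a count numbered 13090 to 13455 in biotin-positive, 14225 to 15742 in biotin-negative and 13113 to 13596 in Cd40-null libraries. Rn45s, the ribosomal RNA precursor, took 15.05% to 19.5% of counts in biotin-positive, 19.6% to 21.5% in biotin-negative, and 18.3% and 20.7% in Cd40-null libraries, so the biotin groups did not overlap, though their nearest libraries were almost level. Each measured marker of these 3 lists had counts in both biotin groups, and 1 of the 14 monocyte and macrophage markers was at 0 in both Cd40-null libraries. In biotin-positive libraries the conventional DC, type 2 DC and plasmacytoid DC lists summed to 5090 to 7440, 109 to 251 and 81.9 to 198 CPM. In biotin-negative libraries they summed to 8290 to 10900, 408 to 591 and 230 to 532 CPM. Spib made up 47.2% and 75.2% of the plasmacytoid DC sum in biotin-positive and biotin-negative libraries, and was the 1 marker of that list that fell. Of its 6 markers 3 had a positive log2 fold change and 3 a negative one (median −0.158). The type 1 DC, proliferation, B cell and NK cell lists overlapped between the biotin groups, and the NK cell list stayed at or under 4.24 CPM. The mean log2 CPM of the monocyte and macrophage markers was used as a covariate. In that fit 0 proteasome genes and 196 of all 14217 genes tested were called (Psme1 log2 0.27, edgeR adjusted p = 0.635). With the number of detected genes 0 proteasome genes and 11 of all genes were called (Psme1 log2 0.27, edgeR adjusted p = 0.734). Without a covariate 1102 of all genes were called. The number of detected genes did not overlap between the biotin groups, and the monocyte and macrophage sums overlapped in few libraries. With the mean log2 CPM of the T cell markers, in which each marker, Il7r included, weighs alike, Psme1, Psme2 and Psmb8 were called. That fit called 780 of all genes. The part of these other cells in the result was not tested beyond these fits, and that of the Rn45s share was not tested.

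Genes that work with the proteasome were read from lists. None of 17 measured partners outside the naming pattern was called (0 of 17, against 7.75% of all genes tested). Pomp, the maturation chaperone of the core, was 106 ± 13.4 CPM in biotin-positive libraries, against 78.8 ± 14.4 CPM in biotin-negative ones (log2 0.42, edgeR adjusted p = 0.0599). Vcp, the p97 segregase that extracts ubiquitinated proteins, was 1559 ± 122 CPM in biotin-positive libraries, against 872.5 ± 96.1 CPM in biotin-negative ones (log2 0.84, SE 0.08; edgeR adjusted p = 1.4e-05), with no overlap. Rps27a, which encodes ubiquitin fused to a ribosomal protein, fell by 0.62 on the log2 scale (edgeR adjusted p = 0.0126). None of 4 factors of the transcriptional response to proteasome inhibition was called (0 of 4, against the same 7.75%). Nfe2l1 was among them, at 545 and 467 CPM in biotin-positive and biotin-negative libraries.

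Of 12 genes of class I peptide loading, 3 rose and 0 fell, against 3.7% and 4.05% of all genes tested, and the median log2 fold change was 0.22, against −0.03 over all genes. Tap2, a subunit of the transporter that carries proteasome products into the endoplasmic reticulum, was 453 ± 51.2 CPM in biotin-positive libraries, against 349 ± 42.8 CPM in biotin-negative ones (log2 0.38, SE 0.10; edgeR adjusted p = 0.0239). Its partner Tap1, which adjoins Psmb9 on the opposite strand, was 587 ± 50.4 CPM in biotin-positive libraries, against 489 ± 32.9 CPM in biotin-negative ones and did not pass (log2 0.26, SE 0.08; edgeR adjusted p = 0.0657). The other 2 that rose were Tapbp and Tapbpl. Of 17 genes of the interferon-gamma arm, known to induce the immunosubunits, 2 rose and 2 fell, against the same 3.7% and 4.05%, with a median of −0.15. Irf1, an interferon-induced activator of immunosubunit genes, was 1124 ± 96.98 CPM in biotin-positive libraries, against 696 ± 136.5 CPM in biotin-negative ones (log2 0.69, edgeR adjusted p = 0.00141). Irf8, a related factor of the DC lineage, was 437 ± 98.6 CPM in biotin-positive libraries, against 191 ± 47.2 CPM in biotin-negative ones (log2 1.196, edgeR adjusted p = 0.000431). Ifngr1, the ligand-binding receptor chain, fell to 30.2 ± 8.20 CPM in biotin-positive libraries, against 78.9 ± 12.2 CPM in biotin-negative libraries (log2 −1.38, edgeR adjusted p = 0.00014). Cxcl10, an interferon-induced chemokine, was 2.56 ± 2.099 CPM in biotin-positive libraries, against 23.0 ± 21.4 CPM in biotin-negative ones, with overlapping groups (log2 −3.15, SE 0.80; edgeR adjusted p = 0.0217).

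Biotin-positive and Cd40-null DCs were compared next, labelled cells against cells without the receptor. No proteasome gene was called (0 of 48, against 2.27% of all genes tested, or 1.22% higher and 1.05% lower), and 4 (8.33%) had an unadjusted p under 0.05, against 13.8% of all genes. The immunoproteasome genes had log2 fold changes from 0.08 for Psmb9 to 0.30 for Psme2, with edgeR adjusted p from 0.453 to 0.92. Psme1 and Psme2, together with Psmd1 of the 19S base, had all 6 biotin-positive libraries above both Cd40-null ones (6.25%, against 7.81% of all genes). Psmb1, Psmc5 and Psmg4 had them all below (6.25%, against 8.07%). Psmb1 was 139 and 175 CPM in biotin-positive and Cd40-null libraries (log2 −0.33, SE 0.14; edgeR adjusted p = 0.312). DESeq2 and limma voom, as alternatives, also called 0 proteasome genes. Among the partner lists, Vcp rose (1559 and 885 CPM in biotin-positive and Cd40-null libraries, log2 0.82; edgeR adjusted p = 0.00178), as did Nlrc5, the class I transactivator (log2 0.77; edgeR adjusted p = 0.0212). Ifngr1 and Gbp4, a guanylate-binding protein, fell by 1.19 and 0.66 on the log2 scale (edgeR adjusted p = 0.0134 and 0.0332).

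Biotin-negative DCs were also set against Cd40-null DCs, where neither group carried the mark. Here too no proteasome gene was called (0 of 48, against 0.317% of all genes tested, or 0.274% higher and 0.0422% lower), and 1 had an unadjusted p under 0.05 (2.08%, against 9.22% of all genes); DESeq2 and limma voom called 0. The immunoproteasome genes had log2 fold changes from −0.23 for Psme1 to −0.08 for Psmb10, with standard errors of 0.13 to 0.21. Psma6 had all 6 biotin-negative libraries above the Cd40-null pair (2.08%, against 6.23% of all genes), at 168 and 124 CPM (log2 0.44, SE 0.17; edgeR adjusted p = 0.442). Psmd2 and Psmd10 had them all below (4.17%, against 4.47%). None of the partner lists had a call (0 genes). The 3 comparisons share libraries, so their values are not independent, and 2 Cd40-null libraries give little precision, so that a count of 0 does not show levels to be alike: the standard error of Psme1 was 0.14 and 0.13 against the null group and 0.10 between the biotin groups.

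Several of these genes share sequence with other genes, so that 38-base reads could be assigned to either. Of the 38-base windows of the longest principal transcript, 63.7% of Psme2 also occurred in another gene (Gm7928 and Psme2b), 68.8% of Psmb5, 30.6% of Psmb7, 19.3% of Psme1, 13.3% of Psmb9 (Tap1), 8.54% of Psmb6, 7.29% of Psmb8 and 6.04% of Psmb1, and none of Psmb10 or Psmf1 (0). How the expected counts divided such reads is not given in the sources used here. Smart-seq2 does not mark strand, so reads of Psmb9 and of Tap1 where they overlap cannot be told apart.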

How the data were processed

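Polyadenylated RNA of 14 libraries was sequenced as paired-end reads of 38 bp, per the labels' protocols. Per the submitters' processing notes, Bowtie2 (2.1.0), RSEM (1.2.8), DESeq2 (1.16.0) and the build mm10 were used; their roles and the gene annotation are not given in the sources used here. The authors deposited expected counts per gene symbol for 23420 symbols, of which 3078 were at 0 everywhere. They also deposited a normalized signal for 10321 genes, in which each library's counts had been divided by a single factor (relative deviation up to 5.11e-15), and which holds 46 of the 48 proteasome genes, Psma8 and Psmb11 not being in it.

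Groups came from the sample labels. Expected counts were rounded and tested in R 4.3.3 with edgeR 4.0.16 (filterByExpr at a min.count of 10, TMM factors, glmQLFit with robust=TRUE on all 14 libraries, two-sided glmQLFTest, Benjamini-Hochberg over 14217 genes, FDR 0.05). Standard errors were taken from the F statistic and the log2 fold change. CPM per kb uses the longest principal transcript of GENCODE M21 (GRCm38), which also gave gene positions; promoters are from RefSeq. The count test was tested on simulated data. Library totals from 14500000 to 33300000 limit precision less than the spread between libraries, and the floor of 3 counts covers counting error only, since reads carry no molecular identifiers. Alternatives used limma 3.58.1, DESeq2 1.42.0, other scalings and filters, covariates, a replicate block and each library left out.

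The proteasome genes and all lists were chosen with earlier results of these data known. Named were the 5 immunoproteasome and 3 constitutive catalytic genes, all called genes, the gene with the smallest p per class, and up to 4 genes with the smallest p per pathway list. Genes outside this rule (class extremes, genes without overlap, Psme3, Psma8, Nfe2l1, Nlrc5, Gbp4 and marker genes) were named after their values were seen. Some items the rule took are not reported here.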

Additional observations from a re-analysis of the deposited data

Results flagged for a closer look

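Values of 48 genes and 5 library measures were examined in each of the 2 groups of 6 libraries, 106 groups in all, for a library far from the rest of its group. A library was set apart when its gap to the nearest other one, as a share of the group's range, passed Dixon's limit for 6 values, which chance passes in about 1 in 20 groups. It was passed 6 times, each time on the high side, and each time by biotin-positive replicate 5 or biotin-negative replicate 2.

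Biotin-positive replicate 5 stood apart for the alpha subunit Psma6, at 177.1 CPM with the next library at 133.3 CPM. It also did for the structural beta subunit Psmb3, at 96.23 CPM with the next at 79.63 CPM, and for the activator Psme4, at 37.01 CPM with the next at 22.36 CPM. Biotin-negative replicate 2 stood apart for Psma6, at 192.4 CPM with the next library at 166.3 CPM, for the structural beta subunit Psmb2, at 138.6 CPM with the next at 103.8 CPM, and for the constitutive catalytic subunit Psmb6, at 106.7 CPM with the next at 72.6 CPM. Of the 43 proteasome genes outside the immunoproteasome set, 20 were highest in biotin-positive replicate 5 and 21 in biotin-negative replicate 2 within their groups. Biotin-positive replicate 5 had the largest total of all libraries, at 33260704 counts; whether this bears on its levels was not tested.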

How the results depend on the processing

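Of the 48 proteasome genes, 5 were called between biotin-positive and biotin-negative libraries, beside 1102 of all 14217 genes tested. With RLE factors 5 were called (1106 of all genes), and 5 with a filter at 50 counts (1118 of 11758). DESeq2 called 7 (1589 of all genes) and limma voom 6 (1276 of all genes). The count was 3 with upper-quartile factors, 3 without the robust option, 2 without a filter and 2 with only the 2 groups compared. It was 2 with limma on the deposited normalized signal. As a covariate, the mean log2 CPM of the T cell markers (T cell marker mean) gave 3. The same mean of the monocyte and macrophage markers gave 0, as did the number of detected genes. Leaving out 1 library gave 1 to 4. The cause was not tested, except that a covariate that follows the groups leaves less difference to the group term. In both comparisons with Cd40-null libraries the count was 0 under all 13 alternatives and all 14 left-out libraries, which at this precision says nothing of stability; without 1 Cd40-null library, the other is assumed to vary like the other groups.

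Replicate numbers recur in all groups, but same-numbered biotin libraries did not deviate together (correlations from −0.0269 to 0.0187; 1 of 6 correlated best with its own number), so the numbers were not taken as pairs. With the replicate block 2 proteasome genes (Psme1 and Psme2) were called between the biotin groups, and 129 and 19 of all genes in the comparisons of biotin-positive and of biotin-negative with Cd40-null libraries. The block turned the biotin-negative against Cd40-null values of Psmb10 to 0.061 and of Psme2 to 0.018.

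Of all genes, 1102 were called between the biotin groups (839 to 1106 with 1 library left out). As covariates, detected genes gave 11 and the monocyte and macrophage marker mean gave 196. Between biotin-positive and Cd40-null libraries 323 were called (790 with DESeq2, 606 with limma voom, 206 with limma on the normalized signal; 78 to 346 with 1 library left out, lowest without either Cd40-null library). Between biotin-negative and Cd40-null libraries 45 were called (266 with DESeq2, 29 with only the 2 groups, 6 with detected genes and 27 with the T cell sum as covariate; 12 to 54 with 1 library left out).

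Signs turned for genes that were never called there. Between the biotin groups, the T cell marker mean gave 0.0201 for Psmb6 and 0.042 for Psmb7. The monocyte and macrophage marker mean gave −0.031 for Psmb5. For biotin-positive against Cd40-null libraries, the T cell marker mean gave −0.0074 for Psmb5. In the same comparison the monocyte and macrophage marker mean gave −0.045 for Psmf1 and −0.035 for Psma6. For biotin-negative against Cd40-null libraries, detected genes gave 0.14 for Psmb10, 0.023 for Psme2, −0.18 for Psmb5 and 0.17 for Psmg4. There the T cell marker mean gave −0.16 for Psmb5, −0.032 for Psmb7 and −0.074 for Psmb1. With 1 library left out, log2 values between the biotin groups ran from −0.015 to 0.12 for Psmb5, −0.13 to 0.087 for Psmb6 and −0.11 to 0.10 for Psmb7. Against Cd40-null libraries, biotin-positive values ran from −0.014 to 0.36 for Psmb10, −0.032 to 0.13 for Psmb7 and −0.064 to 0.22 for Psma6. Biotin-negative values ran from −0.26 to 0.11 for Psmb10, −0.054 to 0.077 for Psmb5, −0.047 to 0.15 for Psmb7, −0.041 to 0.072 for Psmb1 and −0.19 to 0.11 for Psmd13. The log2 ratio of catalytic immunosubunits to their counterparts ran from 0.28 to 0.36 between the biotin groups, from −0.14 to 0.15 for biotin-positive and from −0.45 to −0.16 for biotin-negative against Cd40-null libraries.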
